A study of Homo sapiens with 4 samples.

Results

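The AP-1 and immediate-early transcription factors described here are FOS, FOSB, FOSL1, FOSL2, JUN, JUNB, JUND, EGR1, EGR3 and SRF, which were found by gene name in the expression table. All 10 genes have a row among the 17755 listed genes, and each reached 10 or more counts in at least 1 library per cell line. RNA-Seq was performed in the melanoma cell lines SK-MEL-28 and A375, each transfected with a control siRNA (siNC) or with siRNA against the long non-coding RNA LINC00622 (siLINC00622). The cells of all 4 conditions stayed 6 h in DMEM without serum and then 24 h in DMEM with serum before RNA was taken. There was 1 library per condition, so a difference between siLINC00622 and siNC within a line has no replicate check, and it may be a difference between single cultures.

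AP-1 is a dimer of basic leucine zipper proteins, in which a FOS protein pairs with a JUN protein, or JUN proteins pair with each other. FOS, FOSB, JUN, EGR1 and EGR3 are classic immediate-early genes, whose short-lived transcripts are induced by serum and growth factors through MAP kinases. SRF, which binds the CArG box with ETS-type or actin-sensing cofactors, is one of the factors that drive this induction. FOSL1 is known to follow sustained ERK signaling, which is common in melanoma. SRF also drives genes of the actin cytoskeleton.

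The siRNA target sequences are shown because a guide strand can also act on other transcripts through its seed. Capitals mark the bases opposite positions 2 to 8 of the guide strand. The sources used here do not say which of these siRNAs went into the sequenced cells.
siLINC00622_1: ccctaaagaaaGTGAGAAa
siLINC00622_2: ggcaacctctaATTGACTt

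The seed site of siLINC00622_1 was found once in the longest annotated 3′ UTR of FOSL2 (GENCODE 29), at bases 3370 to 3376 of 4864, and in 0 of the other 9 members. The site, in capitals with its neighbouring bases, is as follows.
FOSL2 site: acttagagGTGAGAAggtctgt

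That of siLINC00622_2 was found in 0 of the 10 members. Among the 12367 listed genes with an annotated 3′ UTR, 14.5% held the first site and 11.6% the second. These shares are not matched for length, and the 3′ UTR of FOSL2, at 4864 bases, is the longest among the 10 members. A longer 3′ UTR has more places for a match. FOSL2 was higher with siLINC00622 in SK-MEL-28 and lower in A375, as given below.

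Upstream sequences were available for 8 members in the RefSeq promoter table (GRCh38.p14), which covers 250 bases before to 50 bases after a start. FOSL1 and EGR3 have no entry. The 250 bases before the start are shown for FOS, the member with the largest ratio in SK-MEL-28. They are also shown for EGR1 and SRF, which held CArG boxes within this window. Capitals mark matches on either strand to the CArG box, to the AP-1 site TGANTCA, to the cAMP response site TGACGTCA and to the EGR site GCGNGGGCG.
FOS, chr14:75278578-75278827, plus strand: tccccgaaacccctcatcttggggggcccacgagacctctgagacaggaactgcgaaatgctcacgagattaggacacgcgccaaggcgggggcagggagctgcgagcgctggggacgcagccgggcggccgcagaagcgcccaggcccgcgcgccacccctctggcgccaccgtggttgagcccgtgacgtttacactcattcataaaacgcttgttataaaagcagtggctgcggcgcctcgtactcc
EGR1, chr5:138465229-138465478, plus strand: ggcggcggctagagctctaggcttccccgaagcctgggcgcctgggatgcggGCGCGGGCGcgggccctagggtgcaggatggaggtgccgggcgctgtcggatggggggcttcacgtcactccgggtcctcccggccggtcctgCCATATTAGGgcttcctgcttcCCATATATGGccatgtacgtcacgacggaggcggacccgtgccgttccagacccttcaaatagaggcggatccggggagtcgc
SRF, chr6:43171019-43171268, plus strand: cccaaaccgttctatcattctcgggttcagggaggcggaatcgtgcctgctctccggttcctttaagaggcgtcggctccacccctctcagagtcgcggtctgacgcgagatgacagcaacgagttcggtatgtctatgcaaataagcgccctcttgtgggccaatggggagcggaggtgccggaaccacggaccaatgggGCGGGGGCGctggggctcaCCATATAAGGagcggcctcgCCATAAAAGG

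EGR1 held 2 CArG boxes, which begin 105 and 83 bases before the start, and 1 EGR site 198 bases before it. SRF held 2 CArG boxes, which begin 30 and 10 bases before the start, and 1 EGR site 49 bases before it. A second listed start of SRF held 0 of these motifs. The cAMP response site was found once in JUND, 200 bases before the start, and the AP-1 site once in FOSL2, just after the start. In FOS, FOSB, JUN and JUNB these letters were not in the window. Sequence further upstream was not searched, so sites there are not excluded for any member. Of all 35116 promoters of the same length, 1.29% held a CArG box, 7.71% the AP-1 site, 1.85% the cAMP response site and 9.43% the EGR site. None of these matches was tested for binding here.

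Library totals lay between 31269923 and 36384819 counts. LINC00622 itself had 309 counts under siNC and 135 under siLINC00622 in SK-MEL-28, while A375 had 135 and 86, so both ratios went with the labels. After scaling it was 2.32-fold lower in SK-MEL-28 and 1.80-fold lower in A375, a partial fall in each line. Of the pigment cell markers, 8 of 8 were listed, with a summed level between 2061 and 2210 FPKM in SK-MEL-28 and between 133 and 166 FPKM in A375. MITF, PMEL, MLANA, TYR and DCT were far lower in A375, whereas SOX10, a factor of the melanocyte lineage, was above 100 FPKM in every library. Markers of keratinocytes had 3 of 6 genes listed (summed FPKM 19.8 to 33.1, most of it KRT10), those of fibroblasts 1 of 6 (LUM, 2.24 to 9.77 FPKM), and those of blood and endothelium 0 of 6. In bulk RNA, fewer cells that express a gene and less RNA of it per cell cannot be told apart.

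To compare levels between genes, FPKM values were used, which are scaled for gene length. FOSL1 ranked first among the 10 genes in all 4 libraries. In A375 it stood above 99.5% or more of all listed genes, and in SK-MEL-28 above 92.5% or more. FOSB and EGR3 were among the 4 lowest members in every library, and FOS was the lowest member in both libraries of A375.

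**Figure D1:**
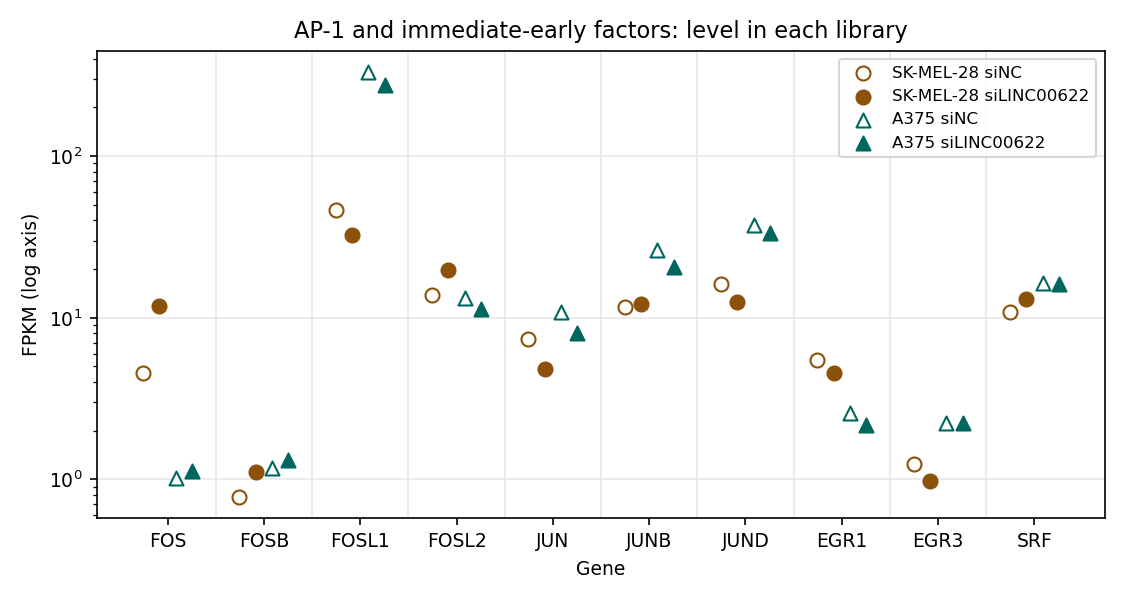
Level of the 10 genes in each library, in FPKM on a log axis. Circles are SK-MEL-28 and triangles A375, open for siNC and filled for siLINC00622, and each symbol is 1 library. FOSL1 is highest in every library, at 276 FPKM or more in A375, and FOS differs most between the lines in the opposite direction.

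In A375, the order below FOSL1 was JUND, JUNB, SRF, FOSL2 and JUN, and the values of the siNC and siLINC00622 libraries of these genes did not overlap with those of the next gene. EGR1 (2.57 and 2.18 FPKM) and EGR3 (2.22 and 2.24 FPKM) overlapped there, and FOSB (1.17 and 1.32 FPKM) lay just above FOS (1.01 and 1.12 FPKM). In SK-MEL-28, the order below FOSL1 was less distinct. FOSL2 (13.7 and 19.7 FPKM) overlapped with JUND (16.2 and 12.6 FPKM), JUND with SRF (10.8 and 13.0 FPKM), and SRF with JUNB (11.7 and 12.2 FPKM). FOS (4.54 and 11.8 FPKM) reached into the range of SRF and JUNB and also covered that of JUN (7.43 and 4.81 FPKM) and EGR1 (5.51 and 4.56 FPKM). FOSB (0.783 and 1.12 FPKM) and EGR3 (1.25 and 0.977 FPKM) overlapped with each other and lay below the rest. With 1 library per condition, these overlaps rest on a pair of libraries with different siRNAs.

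Within the FOS family, FOS (ENSG00000170345, chromosome 14 of GRCh38 from 75278774 to 75282230, plus strand) encodes the founding member with a strong transactivation domain. It had 479 counts under siNC and 1280 under siLINC00622 in SK-MEL-28, against 101 and 130 in A375. Its level was 4.54 and 11.8 FPKM in SK-MEL-28, against 1.01 and 1.12 FPKM in A375, in the same order. The siLINC00622 library of SK-MEL-28 was thus the highest by a wide margin, and both libraries of A375 were low. The log2 ratio of siLINC00622 over siNC was 1.38 in SK-MEL-28, a 2.61-fold higher scaled count, with a 95% Clopper-Pearson interval from 1.23 to 1.54. In A375 it was 0.15, with an interval from -0.23 to 0.54 that includes 0. These intervals cover counting error only, and the difference between the lines in this response was not tested.

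FOSB (ENSG00000125740, chromosome 19), a close relative of FOS with the same kind of transactivation domain, was low throughout. Its counts were 144 under siNC and 212 under siLINC00622 in SK-MEL-28, while A375 had 203 and 266. Both ratios lay above 0, at 0.52 (interval 0.21 to 0.84) and 0.18 (interval -0.09 to 0.45) on the log2 scale, below 1.5-fold in each line. The GENCODE 29 annotation places ERCC1 on the opposite strand across part of FOSB, and whether the authors counted by strand is not given in the sources used here. A transcript on the opposite strand (AC055854.1) likewise overlaps EGR3.

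FOSL1 (ENSG00000175592, chromosome 11 of GRCh38 from 65892049 to 65900573, minus strand) encodes a FOS-related protein without the strong transactivation domain of FOS. It had 19550 counts under siNC and 18956 under siLINC00622 in A375, and 2904 and 2107 in SK-MEL-28. In FPKM these were 331 and 276 in A375 and 46.5 and 32.7 in SK-MEL-28, so every A375 library was far above every SK-MEL-28 library. FOSL1 was lower with siLINC00622 in both lines, by 1.41-fold in SK-MEL-28 (log2 ratio -0.49, interval -0.58 to -0.41) and by 1.19-fold in A375 (log2 ratio -0.25, interval -0.28 to -0.23).

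FOSL2 (ENSG00000075426, chromosome 2), the other FOS-related gene, went in opposite directions. It had 3258 counts under siNC and 4821 under siLINC00622 in SK-MEL-28, which gives a log2 ratio of 0.53 (interval 0.47 to 0.60). The A375 libraries had 2963 and 2965 counts, which after scaling is a log2 ratio of -0.21 (interval -0.28 to -0.13). An intronic and an antisense transcript (AC104695.3 and FLJ31356) overlap FOSL2 in the annotation. Only the siLINC00622 library of SK-MEL-28 stood apart, at 19.7 FPKM, while the other 3 libraries lay between 11.4 and 13.7 FPKM.

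The summed level of the 4 FOS family genes was nearly equal in the libraries of SK-MEL-28, at 65.5 FPKM with siNC and 65.3 FPKM with siLINC00622, but its makeup was not. The share of FOS was 6.93% with siNC and 18.0% with siLINC00622, that of FOSL2 21.0% and 30.2%, and that of FOSL1 70.9% and 50.1%. In A375 the sum was 347 FPKM with siNC and 290 FPKM with siLINC00622, and FOSL1 made up 95.6% and 95.2% of it. FOS accounted for 0.292% and 0.387% there. Within A375 the shares of FOSL1 thus differed by less than those in SK-MEL-28.

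**Figure D2:**
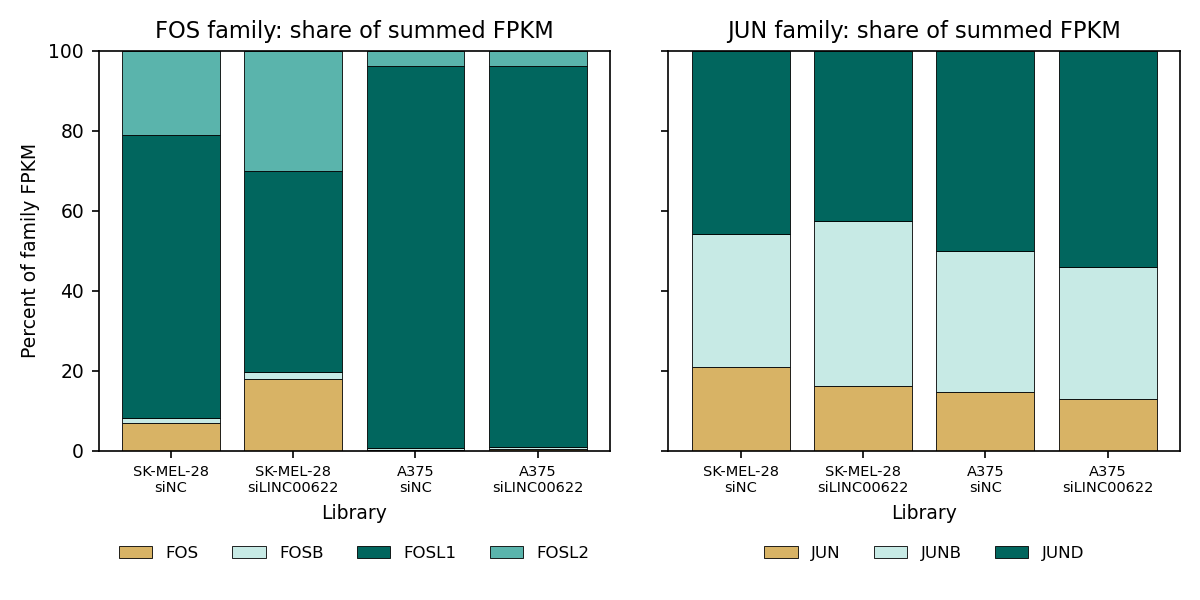
Share of each gene in the summed FPKM of the FOS family (left) and of the JUN family (right), in percent, for each of the 4 libraries. In SK-MEL-28 the FOSL1 share is 70.9% with siNC and 50.1% with siLINC00622, while it is 95.6% and 95.2% in A375.

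Within the JUN family, JUN (ENSG00000177606, chromosome 1 of GRCh38 from 58780788 to 58784327, minus strand) encodes the main transactivating partner of FOS proteins. Its counts were 892 under siNC and 595 under siLINC00622 in SK-MEL-28, while A375 had 1238 and 1065. In FPKM it had 7.43 and 4.81 in SK-MEL-28, against 10.9 and 8.08 in A375, so the siLINC00622 library was the lower one in each line. JUN was lower by 1.53-fold in SK-MEL-28 (log2 ratio -0.61, interval -0.77 to -0.46) and by 1.34-fold in A375 (log2 ratio -0.43, interval -0.55 to -0.31).

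JUNB (ENSG00000171223, chromosome 19), whose protein can act against JUN, had 711 counts under siNC and 763 under siLINC00622 in SK-MEL-28, while A375 had 1509 and 1367. Its log2 ratio was 0.07 in SK-MEL-28, with an interval from -0.08 to 0.22, and -0.35 in A375, with an interval from -0.46 to -0.25. HOOK2 lies across part of JUNB on the opposite strand, so reads of both genes cannot be told apart where strand was not used.

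JUND (ENSG00000130522, chromosome 19), the most steadily expressed JUN gene in most cells, had 1037 counts under siNC and 830 under siLINC00622 in SK-MEL-28, while A375 had 2265 and 2355. The ratios were -0.35 (interval -0.49 to -0.22) and -0.15 (interval -0.24 to -0.07) on the log2 scale. It was the JUN gene with the largest share of family FPKM in every library, between 42.5% and 54.0%. The summed level of the 3 genes was 35.4 FPKM with siNC and 29.6 FPKM with siLINC00622 in SK-MEL-28, against 74.8 and 62.2 FPKM in A375.

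EGR1 (ENSG00000120738, chromosome 5), a zinc finger factor induced by serum within minutes, had 572 counts under siNC and 489 under siLINC00622 in SK-MEL-28, while A375 had 252 and 249. Its upstream sequence is shown above, with its CArG boxes and EGR site. Its log2 ratios were -0.26 (interval -0.43 to -0.08) and -0.23 (interval -0.49 to 0.03), and only the first interval lies apart from 0. EGR3 (ENSG00000179388), which is itself a target of EGR1, had 209 and 168 counts in SK-MEL-28 and 350 and 411 counts in A375. Its log2 ratios were -0.34 (interval -0.65 to -0.05) and 0.02 (interval -0.19 to 0.23).

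SRF (ENSG00000112658, chromosome 6), the CArG box factor, differed by less than 1.5-fold between the treatments in both lines. It had 1511 counts under siNC and 1878 under siLINC00622 in SK-MEL-28, with a log2 ratio of 0.28 and an interval from 0.18 to 0.38. The A375 libraries had 2163 and 2480 counts, a log2 ratio of -0.01 (interval -0.10 to 0.07).

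**Figure D3:**
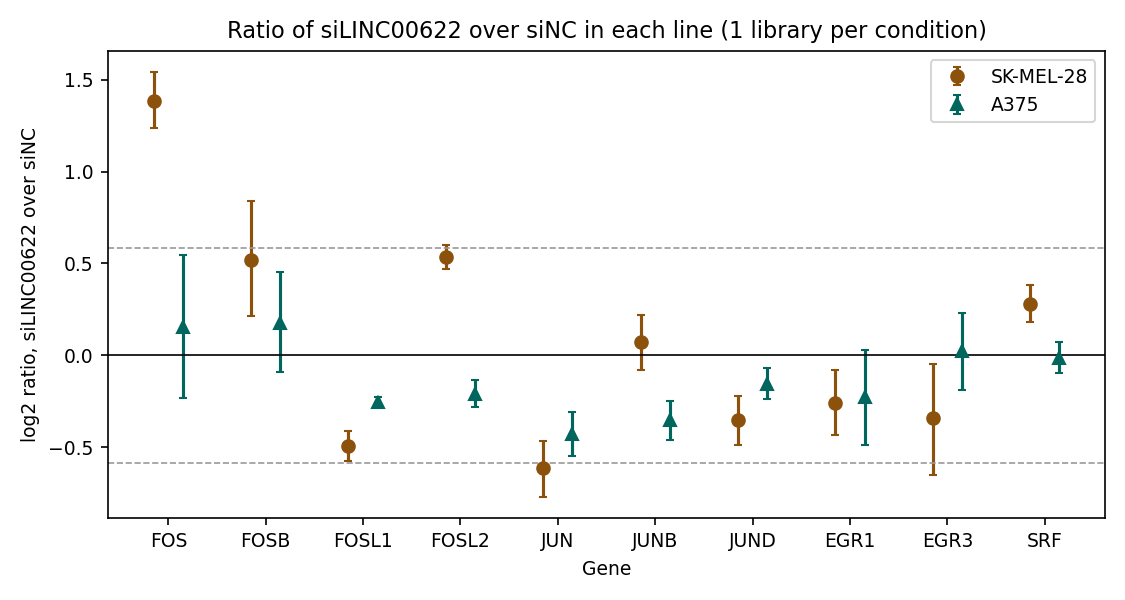
Log2 ratio of siLINC00622 over siNC for each gene, from scaled counts, in SK-MEL-28 (circles) and A375 (triangles). Bars are 95% Clopper-Pearson intervals that cover counting error only, and dashed lines mark 1.5-fold; FOS and JUN in SK-MEL-28 lie past them, and in A375 0 of the 10 genes do.

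With a difference of more than 1.5-fold, the fold used in the study, 1 of the 10 genes (FOS) was higher and 1 (JUN) lower with siLINC00622 in SK-MEL-28. Over all genes with at least 10 counts, 4.56% were higher and 6.49% lower by this measure. In A375, 0 of the 10 genes were past 1.5-fold in either direction, against 4.52% higher and 4.34% lower of all genes. The median log2 ratio of the members was -0.18 in A375 and -0.09 in SK-MEL-28, beside medians over all tested genes of 0.0043 and -0.0040. JUN stood at 1.53-fold, just past the limit, and with FPKM and a pseudocount of 1 its log2 ratio of -0.54 was inside it. The criteria of the study, a fold above 1.5 with p below 0.05, were applied with edgeR's exact test at an assumed dispersion of 0.1, which compares libraries and not conditions. FOS alone of the 10 genes passed them in SK-MEL-28, where 0.608% of all genes passed, and 0 of the 10 passed in A375, where 0.304% did. LINC00622 itself passed them in neither line.

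To ask whether a gene went the same way in both lines, siLINC00622 was compared with siNC over the 4 libraries with the cell line as a block. The residual spread in this fit is how far the lines differ in their response, with 1 residual degree of freedom. The lines are not replicates of each other. Both edgeR and DESeq2 draw each gene's spread toward the trend over all genes. The SEs and p-values of these fits thus rest partly on other genes, and not on the named gene alone. By edgeR's quasi-likelihood test, 0 of the 10 members passed an adjusted p of 0.05, and 46 of 16310 genes did (0.282%). By DESeq2 with the same model, 0 of the members passed as well, with 3 given no adjusted p, and 303 of the 16310 genes did. LINC00622 itself was not called by edgeR (adjusted p = 0.106) and was given no adjusted p by DESeq2. At an unadjusted p of 0.05, 3 of the 10 members passed (JUN, FOSL1 and FOS), beside 2388 of the 16310 genes (14.6%). JUN had a log2 fold change of -0.51 ± 0.11 (SE; adjusted p = 0.124 by edgeR, and 0.0950 to 1.00 over the alternatives). FOSL1 had -0.36 ± 0.09 (SE; edgeR adjusted p = 0.165, alternatives 0.0890 to 1.00). FOS had 0.92 ± 0.27 (SE; edgeR adjusted p = 0.206, alternatives 0.157 to 1.00). JUN and FOSL1 were lower and FOS higher in 2 of 2 lines, but the size of the FOS ratio came mostly from SK-MEL-28.

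The same fit also compares the cell lines. Here, with the treatment as a block, 9 of the 10 members passed an adjusted p of 0.05, and so did 68.8% of all genes tested, so the members' share is read against a high background. The 3 genes FOS, EGR1 and FOSL2 were higher in SK-MEL-28, beside 33.8% of all genes. The 6 genes FOSL1, JUND, EGR3, JUNB, JUN and SRF were higher in A375, beside 35.0%. FOSB did not pass (log2 fold change -0.24 ± 0.18 SE, edgeR adjusted p = 0.286).

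**Figure D4:**
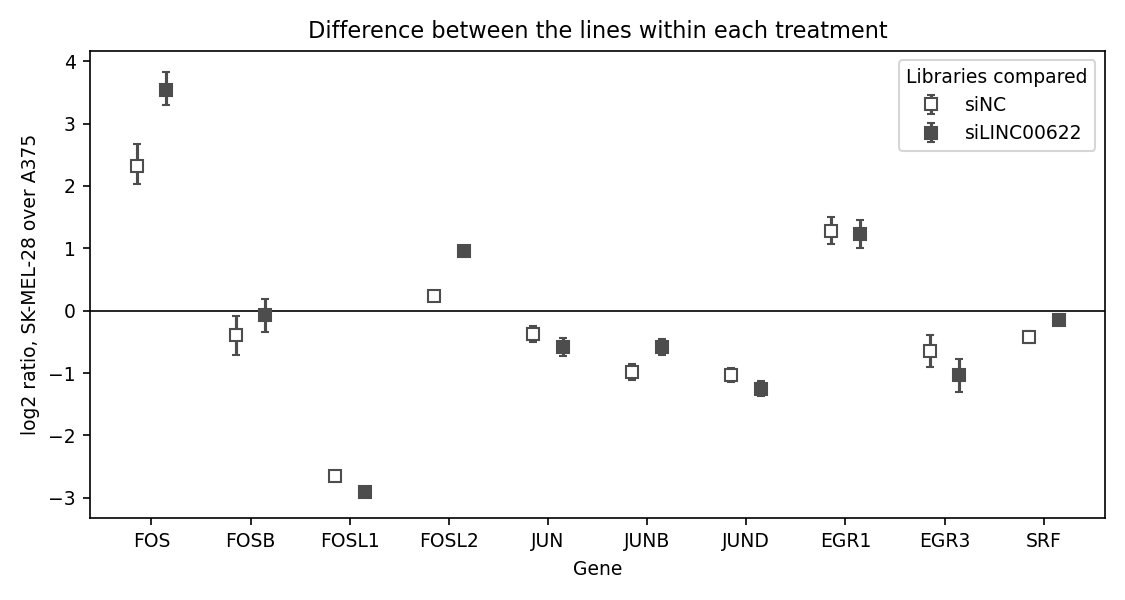
Log2 ratio of SK-MEL-28 over A375 for each gene, within the siNC libraries (open squares) and within the siLINC00622 libraries (filled squares). Bars are 95% Clopper-Pearson intervals for counting error only; FOS is 2.32 and 3.53, and FOSL1 -2.65 and -2.91.

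The difference between the lines was largest for FOS and FOSL1, and it went in opposite directions. FOS had a log2 fold change of 2.98 ± 0.28 (SE) for SK-MEL-28 over A375 (edgeR adjusted p = 0.000107). It was 4.99-fold higher in SK-MEL-28 among the siNC libraries and 11.6-fold higher among the siLINC00622 libraries. FOSL1 had a log2 fold change of -2.79 ± 0.10 (SE; edgeR adjusted p = 1.72e-06), and it was 6.29-fold lower in SK-MEL-28 with siNC and 7.53-fold lower with siLINC00622. EGR1 was 2.42-fold and 2.33-fold higher in SK-MEL-28 in the same order (edgeR adjusted p = 0.000231). EGR3, its relative, was 1.56-fold and 2.04-fold lower there (edgeR adjusted p = 0.00418), so that EGR1 took 81.5% and 82.4% of the FPKM of both EGR genes in SK-MEL-28, against 53.6% and 49.3% in A375.

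The 3 JUN genes were all higher in A375. JUND was lower in SK-MEL-28 by 2.04-fold with siNC and 2.37-fold with siLINC00622 (edgeR adjusted p = 0.000101), and JUNB by log2 differences of -0.99 and -0.59 (edgeR adjusted p = 0.00142). JUN had log2 ratios of -0.37 and -0.58 (edgeR adjusted p = 0.00691). FOSL2 was 1.18-fold higher in SK-MEL-28 with siNC and 1.94-fold higher with siLINC00622 (edgeR adjusted p = 0.0174). SRF was 1.34-fold and 1.11-fold lower there (edgeR adjusted p = 0.0484), and this call was lost with DESeq2 (adjusted p = 0.168), without the block (edgeR adjusted p = 0.113) and with DESeq2 size factors in edgeR (adjusted p = 0.0654), over a range of 0.0480 to 0.168. JUN, too, was no longer called without the block (edgeR adjusted p = 0.131). The libraries of a line differ in their siRNA, so this spread is not that of replicate cultures.

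The genes whose 4 levels were most like those of FOS, by the Euclidean distance of centred log2 CPM over the 4 libraries among genes with at least 50 counts in each, were GPR157 (distance 0.494), DGKI (0.505) and TTYH3 (0.551). GPR157 encodes an orphan receptor, DGKI a diacylglycerol kinase, and TTYH3 a membrane protein of the tweety family. Since GPR157 was chosen for this likeness, its levels are a description, with 1946 counts under siNC and 4871 under siLINC00622 in SK-MEL-28, while A375 had 392 and 754. In A375 its log2 ratio was 0.73 (interval 0.56 to 0.91), above that of FOS.

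Other AP-1 partners of the basic leucine zipper class, such as ATF3 and BATF, were taken from a list of 14, of which 12 were listed. Like the lists that follow, it was chosen with earlier results of these data known. Their shares beside those of all genes are therefore descriptions only. In SK-MEL-28, 4 of 12 genes were past 1.5-fold higher with siLINC00622 (33.3%, against 4.56% of all genes) and 1 lower (8.33%, against 6.49%). With at least 100 counts, these 5 genes past 1.5-fold came to 3. In A375 it was 1 higher (9.09%, against 4.52% of all genes) and 0 lower of 11 (against 4.34%). Among the higher genes in SK-MEL-28 were ATF3, BATF and MAFF, which are named after their values were seen. The fit over both lines called 0 of the 12 by edgeR and 0 by DESeq2, which gave 6 of them no adjusted p. At an unadjusted p below 0.05 there were 2 of 12, near the 14.6% of all genes. Log2 ratios of the list had medians of -0.05 (A375) and 0.13 (SK-MEL-28).

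Of the other immediate-early genes, 33 of 37 were listed. In SK-MEL-28, 5 were past 1.5-fold higher (15.2%, against 4.56% of all genes) and 2 lower (6.06%, against 6.49%). In A375, 2 were higher and 2 lower (6.06% each, against 4.52% and 4.34%). Their median log2 ratios were 0.09 and 0.00, close to those of all genes. The higher genes in SK-MEL-28, named with their values known, were NR4A3, GADD45B, TNFAIP3, SGK1 and KLF10, and the lower ones were CCN1 and TRIB1. NR4A3, an orphan nuclear receptor, had 1956 counts under siNC and 5413 under siLINC00622 in SK-MEL-28, while A375 had 69 and 100. In log2 terms these were 1.44 and 0.32. NR4A3 was called over both lines by DESeq2 (adjusted p = 0.0114) but not by edgeR (adjusted p = 0.112). DESeq2 called 2 of the 33 genes (NR4A3 and SGK1), beside 303 of all 16310 genes, and gave 10 of the 33 no adjusted p. GADD45B was past 1.5-fold in opposite directions, with log2 ratios of -0.73 (A375) and 1.14 (SK-MEL-28). SGK1, a kinase induced by serum and glucocorticoids, was past 1.5-fold higher in both lines, as were 102 of all 17755 listed genes. It had 11738 and 18467 counts in SK-MEL-28, while A375 had 2068 and 3740, a log2 fold change of 0.64 over both lines (edgeR adjusted p = 0.0498). Over the alternatives, this adjusted p ran from 1.13e-06 to 1.00. Of this list, 2 genes (NR4A3 and CCN1) passed the study's criteria in SK-MEL-28, where 0.608% of all genes did.

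Known target genes of AP-1 were 20 listed genes of a list of 25, also chosen with earlier results of these data known. In SK-MEL-28, 0 of 19 were past 1.5-fold higher and 7 lower (36.8%, against 6.49% of all genes), and the median log2 ratio was -0.29. In A375, 2 of 20 were higher (10%, against 4.52% of all genes) and 4 lower (20.0%, against 4.34%), with a median of -0.05. The 3 genes past 1.5-fold lower in both lines were CCND1, CXCL8 and IL11, beside 161 of all 17755 listed genes. CCND1, the gene for a D-type cyclin, had 35045 counts under siNC and 16060 under siLINC00622 in SK-MEL-28, while A375 had 27575 and 16963. Its log2 ratios were -1.16 and -0.91, and the fit over both lines called it (edgeR adjusted p = 0.0406, alternatives 8.20e-15 to 1.00). CXCL8, a chemokine, had 585 and 212 counts in SK-MEL-28, against 1597 and 1213 in A375, log2 ratios of -1.49 and -0.61, and was not called by edgeR (adjusted p = 0.120, alternatives 0.0133 with DESeq2 to 1.00). IL11, named with its values known, had only 14 and 8 counts in SK-MEL-28. MMP1, a collagenase and classic AP-1 target also named with its values known, went the other way, with log2 ratios of 0.56 and 0.59. MMP14, a membrane-bound metalloproteinase named with its values known, was higher too, with log2 ratios of 0.43 and 0.33, and was called by DESeq2 (adjusted p = 0.0102) but not by edgeR (adjusted p = 0.112). Of the list, 2 genes likewise passed the study's own criteria in SK-MEL-28, where 0.608% of all genes did. Between the lines, 15 of 20 targets were called higher in A375, as were 35.0% of all genes, and 3 higher in SK-MEL-28, as were 33.8%.

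Cytoskeletal targets of SRF and its actin-sensing cofactors gave 20 listed genes of 22. In SK-MEL-28, 1 was past 1.5-fold higher (5%, against 4.56% of all genes) and 1 lower (5%, against 6.49%). In A375, 2 were higher (10%, against 4.52%) and 0 lower (against 4.34%). The median log2 ratios were 0.02 and 0.09, in the same order. TPM4, a tropomyosin gene that passed the study's criteria in both lines, was called over both lines (log2 fold change 1.58, edgeR adjusted p = 0.00572, alternatives 3.60e-50 to 1.00). Of the 7 listed cofactors of SRF and corepressors of EGR proteins, 1 was past 1.5-fold lower in SK-MEL-28 (14.3%, against 6.49% of all genes). This was ELK3, an ETS-type cofactor, with log2 ratios of -0.79 and -0.07. In SK-MEL-28, 0 were higher (against 4.56%), and in A375 0 were past 1.5-fold either way (against 4.52% and 4.34%). Among 15 upstream MAP kinases and factors of AP-1 turnover, 1 was past 1.5-fold higher and 1 lower in SK-MEL-28 (6.67% each). The shares of all genes there were 4.56% and 6.49%. In A375, 0 of the 15 were past it, against 4.52% higher and 4.34% lower of all genes. FBXW7, which targets JUN for degradation, had 393 counts under siNC and 635 under siLINC00622 in SK-MEL-28, while A375 had 569 and 875, log2 ratios of 0.66 and 0.41. Of the SRF cofactors and EGR corepressors, the fit over both lines called 0 by edgeR and 0 by DESeq2, with 1 of 7 at an unadjusted p below 0.05. Of the MAP kinases and turnover factors it also called 0 by either tool, with 2 of 15 at that p, both near the 14.6% of all genes. At that p there were also 9 of 33 other immediate-early genes, 7 of 20 AP-1 targets and 5 of 20 cytoskeletal targets, all above 14.6%.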

How the data were processed

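RNA-Seq of SK-MEL-28 and A375 cells with siNC or siLINC00622 gave 4 libraries, grouped by the line and treatment in their labels. By the methods of the study, poly(A)-selected RNA was read from both ends on an Illumina instrument. The submitters' processing notes name HISAT2, HISAT, TopHat2, Bowtie2 and the build hg19, without roles. The counter and annotation are not given in the sources used here. The authors deposited whole-number counts for each gene, not normalized. Their deposited CPM equals these counts scaled to the library total. Deposited FPKM is further scaled by gene length, and deposited TPM is proportional to FPKM within a library. Precision was set by totals of 31269923 to 36384819 counts. Intervals cover counting error only, since there was 1 library per condition. Reads carry no molecular identifiers, so copies of a fragment may have been counted apart, and the intervals may be too narrow.

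Log2 ratios within a line used TMM scaling (edgeR 4.0.16, R 4.3.3), a prior count of 2 and genes reaching 10 counts in either library of a line. Fits over the 4 libraries used glmQLFit and glmQLFTest with line and treatment as terms, genes with at least 10 counts in 2 libraries and Benjamini-Hochberg adjusted p-values. DESeq2 1.42.0, other scalings, prior counts, filters and dispersions were alternatives. The libraries were paired by cell line, which their labels give. The members and gene lists were chosen with earlier results of these data known. The rule for named genes took the members, LINC00622, the genes most like FOS and, from each list, those reaching 50 counts in some library per line: up to 3 per direction past 1.5-fold in both lines, otherwise the gene with the largest mean ratio. Sequences came from RefSeq and the study's supplement, and sites and gene positions from GENCODE 29 on GRCh38, which is not the build of the notes. The statistics were tested on simulated data, and motifs and tables were handled in Python 3.11.15. Some genes that this rule or the lists hold are not reported here.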

Additional observations from a re-analysis of the deposited data

Results flagged for a closer look

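FOSL2 had log2 ratios (siLINC00622 over siNC) of -0.21 in A375 and 0.53 in SK-MEL-28. It was singled out because the single comparison of each line went in opposite directions with both counting intervals apart from 0. The difference between the lines was not tested, since 1 library per condition leaves no spread for it. The other 9 members did not meet this condition.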

How the results depend on the processing

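Each member's log2 ratio kept its direction in both lines under all 7 alternatives of scaling, prior count and FPKM. The counts past 1.5-fold moved as follows. With FPKM and a pseudocount of 1, 1 member was past 1.5-fold in SK-MEL-28, and 494 genes were there and 302 in A375, against 1706 and 1420. With at least 100 counts, 793 and 545 genes were (3 in place of 5 among the other AP-1 partners in SK-MEL-28), and with a fold of 2, 431 and 288 genes and 1 member. The study's criteria gave 108 and 54 genes, 330 and 174 at a dispersion of 0.05, 24 and 18 at 0.2, and 0 and 1 with adjusted p-values. For siLINC00622 over both lines, 46 genes were called, 303 by DESeq2, 1 with DESeq2 size factors in edgeR, 121 without a filter, 0 with at least 100 counts (1998 at an unadjusted p below 0.05), 2388 by unadjusted p, and 0 (28 unadjusted) without the replicate block of pairing by line. For members it was 0 throughout, and 3 by unadjusted p. By CPM, which is not per length, 18 of 40 places in the order of levels were as by FPKM. In the comparison of the lines, 9 members were called, and 7 to 9 under the alternatives. Leaving out a library was not possible with 1 per condition, as it leaves no residual degree of freedom in the fit over both lines.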
